A study of Homo sapiens with 3 samples.

Results

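The 42 genes described here act in G2 and mitosis: the cyclins, kinases, checkpoint proteins, kinetochore proteins, kinesins and spindle proteins that carry a cell from the end of DNA replication to its division. They were chosen by name and function. By the name of their transcripts 41 were found, and KIF23, which the files list under a clone name, was found by its gene identifier. They make up 42 of 60471 genes on the main chromosomes. RNA came from HaCaT cells, an immortalized human keratinocyte line, in a study of how their gene expression depends on the splicing regulator SRSF5, one of the SR proteins. Cells received 10 nM of a control siRNA (genotype labelled WT) or 10 nM of either SRSF5 siRNA No.1 or SRSF5 siRNA No.2 (both labelled SRSF5 knockdown), here siRNA 1 and siRNA 2. Each transfection gave 1 library, so the control has no replicate and the SRSF5 siRNA group holds n = 2 with a different siRNA in each. No label says how long after transfection the RNA was taken or whether the cells were held at one cell cycle stage.

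Entry into mitosis is driven by CDK1 bound to cyclin A or B, which the CDC25 phosphatases switch on and the kinases WEE1 and PKMYT1 hold back. Kinesins and their partners then build the spindle, the checkpoint holds the anaphase-promoting complex until each kinetochore is attached, and anillin and the midzone proteins then pinch the cell apart. Many of these genes are transcribed together late in the cell cycle, through promoter elements bound by the MuvB complex with its partners (the cell cycle homology region, or CHR) and by the factor NF-Y (the CCAAT box), so their RNA is widely read as a mark of dividing cells.

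Promoter sequences show what the members share apart from their function. RefSeq (GRCh38.p14) gave promoters of 300 bases, from 250 before to 50 after the gene start, for 36 of the 42 members; AURKA, BIRC5, BUB3, TPX2, TTK and UBE2C were not matched. The letters TTTGAA, the CHR core, were present on either strand in 25 of 36 (69.4%), against 15.2% of 35116 promoters of the same length. The letters CCAAT were present on either strand in 27 of 36 (75.0%), against 34.6% of all. Both motifs were present, at any spacing, in 21 of 36 (58.3%), against 5.90% of all. Within 50 bases of the start TTTGAA was found in 21 members (58.3%) and in 4.62% of all promoters. The third motif searched, GCGGGAA (an E2F type site), was present on either strand in 3 members (8.33%) and in 6.55% of all promoters. Matches of different motifs shared a base in 2 members (CDCA8 and MKI67). A match is a description, not a bound site.

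The stretches below run from 120 bases before the start to 30 after it and are printed 5′ to 3′ on the gene's own strand. Capitals mark the motif letters on either strand. PLK1 and KIF11 are shown for the usual pair of motifs, and ANLN, CKAP2, MAD2L1 and CDC25B because they are the members farthest from the control below.
PLK1 (chr16:23678769-23678918, plus strand): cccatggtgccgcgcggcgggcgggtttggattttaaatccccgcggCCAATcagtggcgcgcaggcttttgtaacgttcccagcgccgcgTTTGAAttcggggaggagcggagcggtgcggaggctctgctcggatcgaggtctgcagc
KIF11 (chr10:92593010-92593159, plus strand): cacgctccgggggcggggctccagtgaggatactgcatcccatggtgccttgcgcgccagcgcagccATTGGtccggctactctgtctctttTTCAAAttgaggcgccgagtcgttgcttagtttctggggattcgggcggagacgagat
ANLN (chr7:36389742-36389891, plus strand): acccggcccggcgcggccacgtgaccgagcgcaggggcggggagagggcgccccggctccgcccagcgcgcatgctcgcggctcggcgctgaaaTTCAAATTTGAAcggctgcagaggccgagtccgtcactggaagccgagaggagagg
CKAP2 (chr13:52455868-52456017, plus strand): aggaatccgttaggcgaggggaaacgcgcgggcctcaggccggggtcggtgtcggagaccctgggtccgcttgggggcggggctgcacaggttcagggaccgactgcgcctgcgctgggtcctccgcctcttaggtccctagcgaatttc
MAD2L1 (chr4:120066819-120066968, minus strand): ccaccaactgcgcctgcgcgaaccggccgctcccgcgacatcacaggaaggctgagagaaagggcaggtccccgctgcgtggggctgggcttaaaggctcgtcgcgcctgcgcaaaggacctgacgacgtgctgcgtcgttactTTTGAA
CDC25B (chr20:3786831-3786980, plus strand): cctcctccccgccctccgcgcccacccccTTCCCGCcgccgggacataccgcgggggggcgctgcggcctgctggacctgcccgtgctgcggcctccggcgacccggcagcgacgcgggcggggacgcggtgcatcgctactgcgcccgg
PLK1 and KIF11 hold a CCAAT box followed by a CHR core before the start. ANLN holds 2 CHR cores side by side and no CCAAT box in this window, MAD2L1 holds a CHR core just after the start, CDC25B holds the E2F type letters alone, and CKAP2 holds none of the 3 motifs. MAD2L1 also has a CCAAT box at -229, outside the printed stretch, so it counts among the members with both motifs.

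Depth is given in read equivalents of 100 bases, taken from the best covered transcript of each gene. The total was 18319683 for the control library, 17704648 for siRNA 1 and 15861267 for siRNA 2. The targeted gene SRSF5 stood at a summed FPKM of 94.1, 44.3 and 18.7 in the same order, and values below keep this order. The mitochondrial share was 14.0%, 15.1% and 10.2%, lowest with siRNA 2, and its part in the results below was not tested beyond the alternative without mitochondrial transcripts. All 8 keratinocyte markers were present, and their summed FPKM added up to 4284, 4978 and 8344. Under siRNA 2, 6 of the 8 were at least 1.5-fold higher, where 13.2% of all genes tested were. KRT14 differed the most (714, 1040 and 3164), and ITGA6 was lower (329, 268 and 186). Under siRNA 1, PKP1 was lower (72.9, 41.7 and 151). Of 8 fibroblast, 5 melanocyte, 6 immune and 4 endothelial markers 1 each had a mean of at least 1 FPKM (COL1A1, MITF, CD68 and CDH5), and MLANA and TYR were at 0. The sums were 2.92, 5.63 and 6.45 for the fibroblast list, 4.51, 7.70 and 5.84 for the melanocyte list, 29.5, 20.3 and 18.6 for the immune list and 3.71, 1.91 and 2.46 for the endothelial list. The keratinocyte sum was highest with siRNA 2, and its part in the results below was not tested. FPKM is a count scaled to transcript length and library size, and a gene's value here is its sum over the listed transcripts. This sum grows with the number of transcripts, so it is used for ratios, and levels are compared between genes by the highest protein-coding transcript.

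Every member was transcribed in every library. Under siRNA 2 the genes as a set lay somewhat below the control by median ratio, and under siRNA 1 they stayed near it. Their summed FPKM ran from 10.2 (CDC25C) to 445 (ANLN) in the control, with a median of 92.3, and the medians were 84.7 with siRNA 1 and 89.4 with siRNA 2. Added over the 42 genes, the values came to 4705, 4671 and 4139. ANLN alone went from 445 to 119 in the siRNA 2 library. A median level can fall on a different gene in each library, so ratios per gene follow. All 42 passed the filter of a mean summed FPKM of at least 1. On the scale log2(summed FPKM + 1), the median ratio to the control was -0.01 with siRNA 1 and -0.17 with siRNA 2, beside -0.02 and 0.05 over all 13915 genes tested. Under siRNA 1, 21 members lay above and 21 below the control, where 6493 of all genes tested lay above and 7422 below. Under siRNA 2, 15 lay above and 27 below, where 7520 of all genes lay above and 6395 below. The direction of 10 members is not fixed: under another scaling or another summary of transcripts CDC20, CENPE, CENPF, ECT2, HMMR, KIF23, NDC80, NUF2, PLK1 and TOP2A lay on the other side of the control in 1 siRNA library, from a log2 ratio of at most 0.06 in size. In bulk RNA fewer cells in mitosis and less RNA per mitotic cell cannot be told apart.

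**Figure D1:**
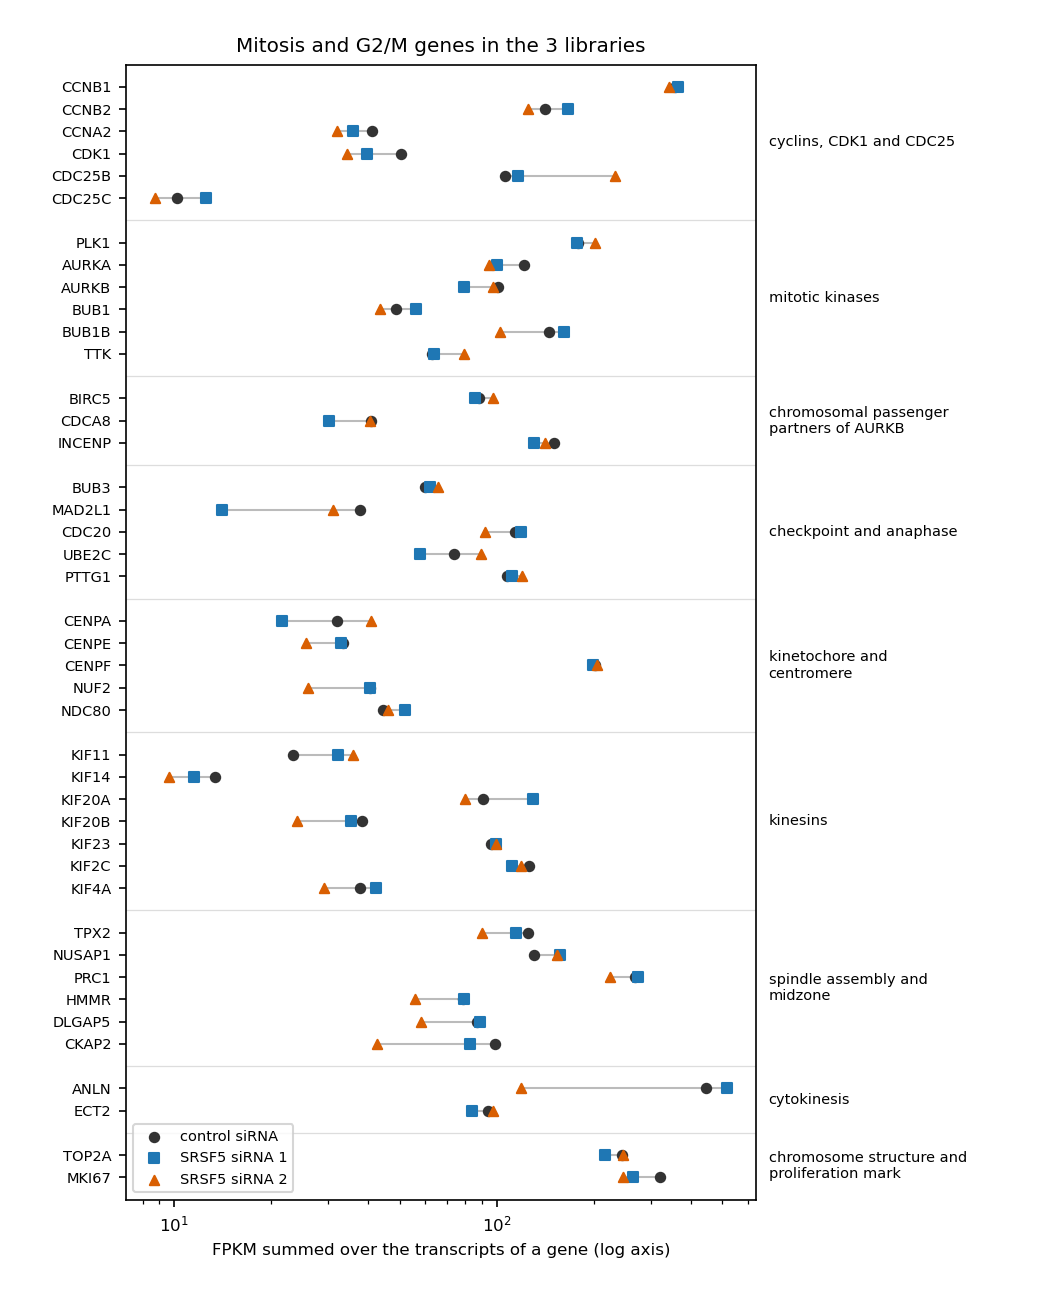
Summed FPKM (horizontal log axis) of each of the 42 genes in the control library (circles), the siRNA 1 library (squares) and the siRNA 2 library (triangles), ordered by role, with a grey line over the range of the 3 single libraries. Most ranges are short; the longest belong to ANLN (445, 518 and 119) and MAD2L1 (37.7, 14.1 and 31.1).

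The comparison of the control with both siRNAs asked which members stood at least 1.5-fold away on the same side in both SRSF5 siRNA libraries. None of the 42 did so in either direction, where 3.19% of all genes tested were higher and 1.47% lower in both. At a looser limit of 25% above the control, or the same ratio below it, 1 member was higher in both, the spindle motor KIF11. At this limit 1 member was lower in both, CDK1. Of all genes, 8.54% were higher and 6.2% lower in both. Taken singly, siRNA 1 had 2 members higher and 6 lower at this limit. For siRNA 2 the counts were 4 higher and 15 lower (35.7% of members). No share of all genes stands beside these single-library counts, so they cannot be read as a result about the members. The median size of the log2 ratio with siRNA 1 was 0.17 over the members and 0.21 over all genes tested. With siRNA 2 it was 0.27 over the members and 0.32 over all genes tested. In limma, which sets the control against both siRNAs and draws each gene's spread toward the trend over all genes, 0 of 42 members had an adjusted p below 0.05 (0.0% of all genes tested), and 0 had an unadjusted p below 0.05 (3.0% of all genes tested). The smallest unadjusted p of a member was 0.113, for MAD2L1 (limma, Benjamini-Hochberg adjusted p = 1.00). With 1 library against 2, an exact permutation test cannot go below p = 0.333, so that test cannot reach 0.05 here. The target SRSF5 itself had no adjusted p below 0.05 in limma (unadjusted p = 0.0047). Missing this limit therefore does not show that a member was unchanged.

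Each siRNA library was also set against the control on its own, where 1 library a side allows no test. Under siRNA 1, 0 members were at least 1.5-fold higher (6.19% of all genes) and 1 was lower, MAD2L1 (2.38% of members, 5.49% of all genes). Under siRNA 2, 2 members were higher, CDC25B and KIF11 (4.76%, against 13.2% of all genes), and 4 were lower, ANLN, CKAP2, KIF20B and NUF2 (9.52%, against 10.1%). The calls of KIF11 and NUF2 held in 6 of 8 settings of scaling, filter, pseudocount and gene summary and that of KIF20B in 7, while CDK1 and DLGAP5 passed 1.5-fold in 2. Among all genes with a mean summed FPKM of at least 5, a level that all members reach, the shares were 5.12% and 6.18% with siRNA 1 and 11.8% and 11.3% with siRNA 2. The members' shares were therefore near or below those of other genes in each direction. Between the siRNAs 4 members were at least 1.5-fold higher with siRNA 2 (CDC25B, MAD2L1, UBE2C and CENPA; 9.52% of members and 13.7% of all genes) and 6 lower (ANLN, CKAP2, DLGAP5, KIF20A, NUF2 and BUB1B; 14.3% of members and 10.5% of all genes).

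**Figure D2:**
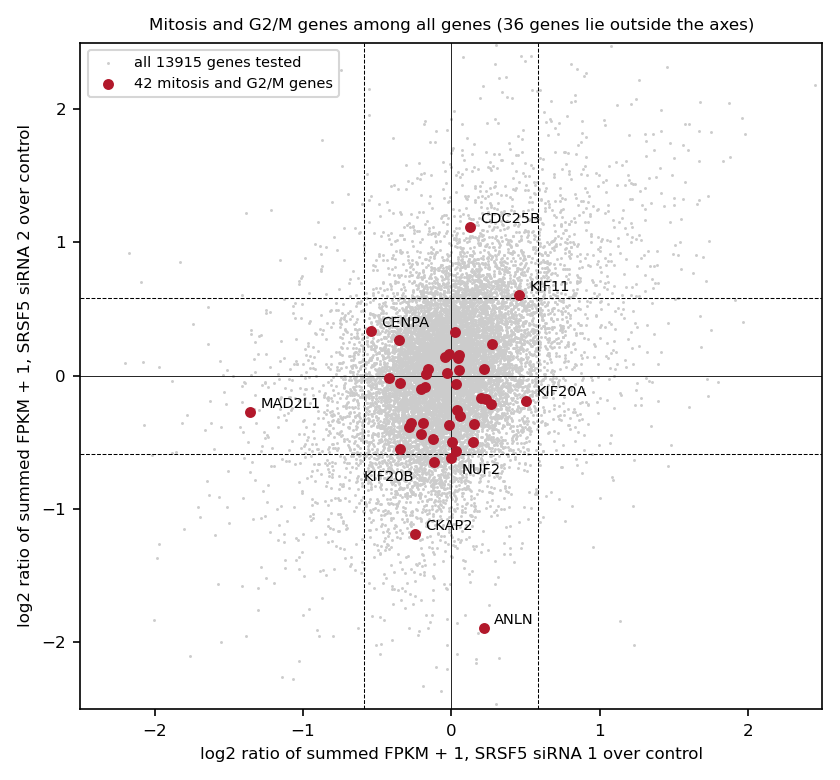
Log2 ratio to the control with siRNA 1 (horizontal) and siRNA 2 (vertical) for the 42 genes (red) and all 13915 genes tested (grey), with dashed lines at 1.5-fold. Both axes share the 1 control library, and 36 genes lie outside the axes, which end at 2.5. No red point lies past 1.5-fold on both axes, and ANLN, CKAP2, CDC25B and MAD2L1 each lie far out on 1 axis.

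The cyclins and CDK1 were within 1.5-fold of the control in both siRNA libraries. CCNB1, the cyclin that carries CDK1 into mitosis, had a summed FPKM of 356 in the control library, 364 under siRNA 1 and 341 under siRNA 2, so both siRNA libraries were close to the control. CCNB2, its Golgi-linked relative, was at 141, 166 and 124.8. CCNA2, the cyclin of S and G2 phase, was at 41.1, 35.9 and 31.9, so both siRNA libraries were below the control. CDK1 itself (chromosome 10) was at 50.6, 39.6 and 34.3, a mean log2 ratio of -0.45 ± 0.14 (SD, n = 2). Both ratios share the 1 control library, so this SD leaves out any spread of the control. The largest transcript of CDK1 held 412, 286 and 251 read equivalents, and counting error alone was 0.11 and 0.12 on the 2 ratios.

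The CDC25 phosphatases, which remove the inhibiting phosphates from CDK1, parted. CDC25B (ENSG00000101224.17, chromosome 20, 3786772 to 3806121, plus strand) was at 106 in the control library, 116 under siRNA 1 and 232 under siRNA 2. The siRNA 2 library was 2.18-fold above the control (log2 1.12, counting error 0.04), while siRNA 1 differed from it by log2 0.13. Among all 13915 genes, 454 had a higher ratio with siRNA 2. CDC25C was low in every library, at 10.2, 12.5 and 8.71, and its 98.96, 114 and 79.8 read equivalents give counting errors of 0.20 and 0.22, larger than or near its log2 ratios of 0.27 and -0.21.

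None of the 6 mitotic kinases was 1.5-fold from the control in either library. PLK1, which acts from mitotic entry to cytokinesis, was at 179, 177 and 201. AURKA, the centrosome and spindle kinase, was at 122, 100.5 and 94.9 and so lower with both siRNAs. AURKB, the kinase of the chromosomal passenger complex, was at 101, 79.4 and 97.1. These values put AURKA below the control in both siRNA libraries and PLK1 within log2 0.17 of it. AURKB was below the control with siRNA 1. With siRNA 2 its log2 ratio of -0.06 was smaller than its counting error of 0.11. The checkpoint kinases showed no common direction. BUB1 was at 48.9, 56.4 and 43.4, TTK at 63.0, 64.1 and 79.3, and BUB1B, the kinase-like checkpoint protein also called BUBR1, at 145, 161 and 103, or log2 0.15 and -0.50. AURKB works with INCENP, CDCA8 (borealin) and BIRC5 (survivin). INCENP was at 151, 131 and 141, CDCA8 at 40.9, 30.3 and 40.4, and BIRC5 at 88.3, 85.5 and 97.6. With siRNA 1 all 4 genes of this complex lay below the control, AURKB and CDCA8 by the most (log2 -0.34 and -0.42). BIRC5 was below it there by less than its counting error (log2 -0.05, counting error 0.07). With siRNA 2 none was farther from the control than BIRC5 (log2 0.14).

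Checkpoint and anaphase genes held the single member that siRNA 1 set apart. MAD2L1 (ENSG00000164109.14, chromosome 4, 120055623 to 120066858, minus strand) encodes MAD2, the protein that binds CDC20 and keeps the anaphase-promoting complex idle until the chromosomes are attached. It was at 37.7 in the control library, 14.1 under siRNA 1 and 31.1 under siRNA 2. The siRNA 1 library was 2.67-fold below the control (log2 -1.36, counting error 0.12), and 60 of 13915 genes had a lower ratio there. With siRNA 2 the log2 ratio was -0.27, with a counting error of 0.10. Its partners did not share this difference: BUB3, the adaptor of the checkpoint complex, was at 60.0, 61.9 and 65.9, and CDC20, the target of the checkpoint and activator of the anaphase-promoting complex, at 114, 119 and 91.9. UBE2C, the ubiquitin-conjugating enzyme of that complex, was at 73.9, 57.7 and 89.1, lowest with siRNA 1 and highest with siRNA 2. PTTG1 (securin), which holds separase back until anaphase, was at 108, 112 and 120. Its near-identical copy PTTG2 was at 0.169, 0.194 and 0.116, so reads placed on the copy are few, although the handling of reads that match both is not stated.

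Of the 5 kinetochore and centromere genes NUF2 was 1.5-fold from the control, and CENPA lay on opposite sides of it with the 2 siRNAs. CENPA, the histone H3 variant that marks centromeres, was at 32.1 in the control library, 21.7 under siRNA 1 and 40.8 under siRNA 2. It lay below the control with siRNA 1 (log2 -0.54, counting error 0.13) and above it with siRNA 2 (0.34, counting error 0.12). NDC80 and NUF2 form 1 arm of the complex that grips microtubules. NDC80 was at 44.4, 51.9 and 46.1. NUF2 (chromosome 1, 163266576 to 163355764) was at 40.4, 40.5 and 26.1, a log2 ratio of -0.61 with siRNA 2 (counting error 0.11), just past 1.5-fold. AL592435.1, on the opposite strand, overlaps NUF2 and was at 1.57, 1.62 and 0.512, also lowest with siRNA 2. The other arm, SPC24 and SPC25, which are not among the 42, was at 14.8, 15.1 and 9.31 and at 15.3, 13.6 and 11.9. CENPE, a kinesin of the kinetochore, was at 33.3, 32.9 and 25.6, and CENPF, a large outer kinetochore protein, at 202, 198 and 204. CENPF is deeply covered, with 23591, 21931 and 22266 read equivalents, and its log2 ratios were -0.03 and 0.02 with a counting error of 0.01 each.

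The kinesins had no common direction. KIF11 (Eg5), the motor that pushes spindle poles apart, is the member with 1 listed transcript, so its value is not inflated by isoforms. It was at 23.3 in the control library, 32.3 under siRNA 1 and 35.9 under siRNA 2. Both siRNA libraries were above the control, by log2 0.46 and 0.60 (counting error 0.03 each), a mean of 0.53 ± 0.10 (SD, n = 2). In limma this difference did not pass (SE 0.39, unadjusted p = 0.197, adjusted p = 1.00), and 1378 and 1736 of 13915 genes had higher ratios. KIF20A, a motor of the midzone, was at 90.9, 129 and 79.7, highest with siRNA 1 (log2 0.50). KIF20B (chromosome 10, 89701610 to 89774939), which acts in late cytokinesis, was at 38.4, 35.3 and 24.1, a log2 ratio of -0.65 with siRNA 2 (counting error 0.05). KIF4A, a chromosome-bound motor with the near-identical copy KIF4B (0.179, 0.273 and 0.26), was at 37.8, 42.1 and 29.1. The remaining motors stayed within 1.5-fold: KIF14 at 13.4, 11.5 and 9.63, KIF23 of the centralspindlin complex at 96.2, 99.7 and 99.3, and KIF2C, which takes microtubules apart, at 126, 111 and 119.

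Among spindle assembly and midzone genes CKAP2 stood farthest from the control. The median log2 ratio of the 6 genes was 0.02 with siRNA 1 and -0.48 with siRNA 2, with 5 of 6 below the control in the latter, as were 6395 of 13915 genes tested, and NUSAP1 above it. CKAP2 (ENSG00000136108.15, chromosome 13, 52455429 to 52476628, plus strand), a microtubule-stabilizing protein of the spindle, was at 98.4, 82.8 and 42.6. The siRNA 2 library was 2.31-fold below the control (log2 -1.19, counting error 0.06), and 222 of 13915 genes had a lower ratio. DLGAP5 (HURP), which bundles spindle fibres near the chromosomes, was at 86.9, 88.9 and 58.4 (log2 0.03 and -0.57). HMMR, a spindle pole protein, was at 78.8, 79.0 and 55.7, and TPX2, which activates AURKA on the spindle, at 124.98, 115 and 89.8. PRC1, which crosslinks the midzone, was at 267, 275 and 224, and NUSAP1, a microtubule bundling protein, at 130.0, 157 and 154. This group of 6 was drawn up with earlier results of these data known and has no test of its own.

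ANLN stood farthest from the control of all 42. Anillin, its product, is the scaffold that ties actin, myosin and septins together in the contractile ring. ANLN (ENSG00000011426.11, chromosome 7, 36389821 to 36453791, plus strand) was at 445 in the control library, 518 under siRNA 1 and 119 under siRNA 2. The siRNA 2 library was thus at 26.7% of the control, a log2 ratio of -1.89 with a counting error of 0.04, and 33 of 13915 genes had a lower ratio. With siRNA 1 the log2 ratio was 0.22, so the siRNAs lay on opposite sides of the control and differed by log2 -2.11. In limma the difference of both siRNAs from the control was -0.84 (SE 0.65, unadjusted p = 0.220, adjusted p = 1.00). KIAA0895, on the opposite strand, shares exon bases with ANLN and was at 5.90, 4.68 and 8.002, far below it; whether reads were counted by strand is not stated. ECT2, the activator of the RhoA switch that assembles the same ring, did not share the difference and was at 93.7, 83.8 and 97.1.

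TOP2A and MKI67 are the members most used to mark dividing cells. TOP2A, the topoisomerase that untangles sister chromosomes, was at 245, 217 and 246. MKI67, the gene of the Ki-67 protein that coats mitotic chromosomes, was at 321, 264 and 246. MKI67 is the deepest member, with 50116, 39240 and 34411 read equivalents, and was below the control by log2 0.28 and 0.39 with a counting error of 0.01 each. Per length, its highest coding transcript had an FPKM of 96.3 in the control, the top of the 42, followed by CCNB1 at 77.1, TOP2A at 65.4, TPX2 at 63.7 and ANLN at 62.0. With siRNA 2 the order of the top was CCNB1 at 74.5, MKI67 at 71.1 and TOP2A at 67.4, and ANLN was at 17.0. Single libraries give no spread by which to part neighbours in these orders.

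At a limit of 2-fold, siRNA 1 gave 0 members higher (1.7% of all genes) and 1 lower (MAD2L1, 1.33% of all genes), and siRNA 2 gave 1 higher (CDC25B, 4.49%) and 2 lower (ANLN and CKAP2, 2.83%). In these 4 genes every listed transcript lay on the same side. For ANLN the 13 transcripts had 24.1% to 31.3% of their control FPKM with siRNA 2 and at 111% to 120.2% with siRNA 1. The 7 CKAP2 transcripts were at 40.3% to 46.1% with siRNA 2, and the 9 CDC25B transcripts at 211% to 223%. The 5 MAD2L1 transcripts were at 36.5% to 40.9% with siRNA 1 and at 72.2% to 84.7% with siRNA 2. A base is counted for each transcript it overlaps, so the transcripts of a gene share reads and are not separate evidence.

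**Figure D3:**
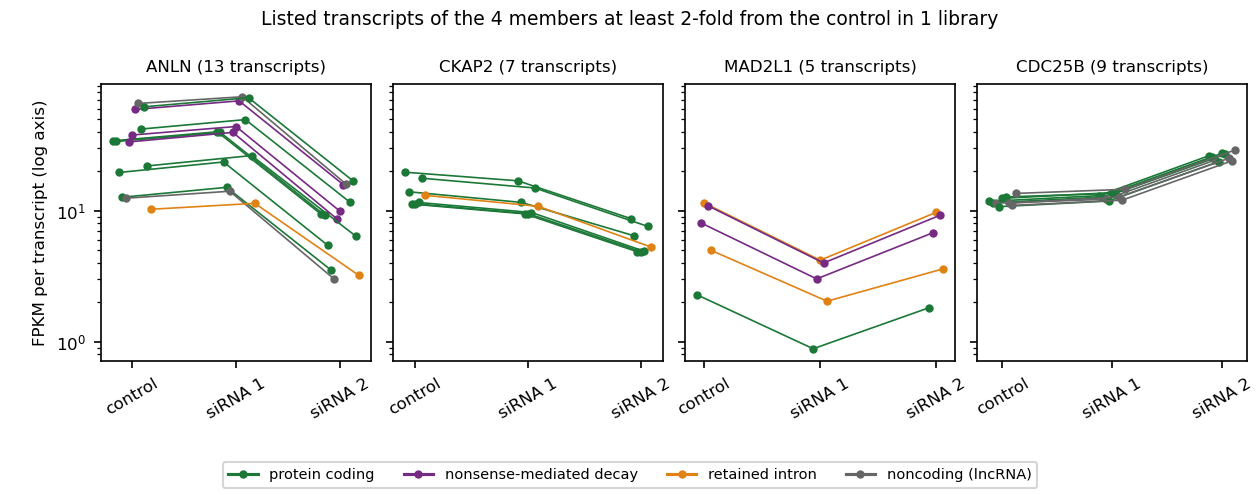
FPKM (vertical log axis) of each listed transcript of ANLN, CKAP2, MAD2L1 and CDC25B in the 3 libraries, 1 line per transcript, coloured by its annotated type, with small sideways shifts for legibility and no error since each point is 1 library. The lines of a gene run in parallel, down with siRNA 2 for ANLN and CKAP2, down with siRNA 1 for MAD2L1 and up with siRNA 2 for CDC25B.

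Because SRSF5 acts in splicing, the share of each transcript in its gene was compared as well. All 42 genes reached a summed FPKM of 5 in every library, with 332 transcripts. No transcript of a member differed from its control share by 10 points or more on the same side with each siRNA, where 0.00111% of 89830 transcripts of all such genes did, and none differed by 5 points in either. CDK1-206, an intron-retaining transcript, had the largest shift in 1 library (8.36%, 11.8% and 9.93% of its gene). Ranked by the smaller of the 2 shifts, the largest in 1 direction were in CENPE-207, also intron-retaining and 291 bases long (30.4%, 27.7% and 28.0%), NDC80-202 (16.3%, 18.03% and 18.2%) and CDC20-204 (31.0%, 29.4% and 28.5%). Transcripts annotated as coding held 60.4%, 59.9% and 60.3% of the members' FPKM, those annotated for nonsense-mediated decay 8.82%, 9.65% and 7.58%, and intron-retaining ones 15.7%, 15.7% and 16.1%. These shares are pooled over the members, so they also follow the levels of single genes. ANLN-209, annotated for decay, was at an FPKM of 59.2, 68.8 and 15.8 but held 13.3% of ANLN in each library. Since transcripts of a gene share reads, isoform differences, large ones included, can leave these shares little changed. The lack of shifts past 10 or 5 points therefore does not settle whether splicing of the members differed.

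Other genes of the pathway came from lists drawn up beside the 42. Shares of all genes past 1.5-fold in both siRNA libraries were 3.19% on the higher side and 1.47% on the lower. In lists this short, counts of 0 or 1 cannot be told from those shares. Of 13 regulators of mitotic transcription 0 were at least 1.5-fold away in both. FOXM1, the activator of many G2/M genes, was at 113, 88.5 and 113, and MYBL2 (B-MYB) at 40.6, 38.1 and 38.9. The ends of that list were LIN52 (9.58, 7.76 and 5.86), a MuvB subunit, and RBBP4 (66.1, 57.9 and 105). Of 33 further kinetochore and centromere genes 1 was higher in both, ZW10, a checkpoint protein that also acts in vesicle transport (13.4, 22.5 and 23.6), and 0 were lower in both. The scaffold KNL1 was lowest of that list, at 62.2, 45.8 and 25.4. Of 29 further spindle and cytokinesis genes 1 was lower in both, PBK, a mitotic kinase (49.4, 32.0 and 17.1; log2 -0.61 and -1.48), and NEK2 was highest (46.4, 52.2 and 57.9). PBK had an unadjusted p of 0.0362 in limma and an adjusted p of 1.00.

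Neither the 20 condensin, cohesin and separase genes nor the 17 genes of the anaphase-promoting complex held one that was 1.5-fold away in both. Their ends were NCAPD2 (151, 211 and 199) and NCAPG2 (28.4, 28.4 and 11.8), both condensin subunits, and ANAPC4 (9.90, 11.6 and 10.8) and ANAPC13 (22.5, 6.97 and 24.4). ANAPC13, a small subunit of the complex that MAD2 holds idle, was like MAD2L1 lowest with siRNA 1 (log2 -1.56, counting error 0.20). Among brakes on CDK1 and the cell cycle, 11 of 12 passed the filter on low values (CDKN1C did not) and 1 was higher in both, the CDK inhibitor CDKN1A (19.3, 29.5 and 30.9), by log2 0.59 and 0.65. CDKN2B (7.77, 19.4 and 9.14) and CDKN1B (35.7, 17.98 and 30.8) were the ends of that list. WEE1 was at 31.5, 44.5 and 41.5, above the control with both siRNAs. Of the other brakes, CHEK2 lay below the control with both siRNAs and PKMYT1 with siRNA 2 only. The mean log2 ratios were 0.44 for WEE1, -0.46 for CHEK2 and -0.16 for PKMYT1. Of the 11 brakes tested, 7 lay above and 4 below the control in each siRNA library. Of 6 genes of G1 progression CDK6 was higher in both (8.07, 13.6 and 13.5), and cyclin D1, CCND1, was at 417, 306 and 207. In limma none of these genes passed (adjusted p = 1.00 for each). With siRNA 1 the median log2 ratio was -0.19 for the regulators and -0.16 for the further kinetochore and centromere genes. It was -0.16 for the further spindle and cytokinesis genes, -0.16 for the anaphase-promoting complex and -0.04 for condensin, cohesin and separase. The brakes stood at 0.25 and the G1 genes at -0.27, next to -0.01 for the 42 and -0.02 for all genes tested. Differences between these lists were not tested.

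Genes of S phase, the step before, were set beside the 42. Their median log2 ratio was -0.05 with siRNA 1 and -0.27 with siRNA 2 over 40 genes, next to -0.01 and -0.17 for the mitotic genes. In the siRNA 2 library 10 of the 40 (25.0%) and 4 of the 42 (9.52%) were at least 1.5-fold lower, against 10.1% of all genes. The difference between these lists was not tested. CCNE2, the E-type cyclin of the entry to S phase, was the S-phase gene lower in both (24.4, 12.1 and 6.54), and ORC6 was the highest (20.6, 25.4 and 25.4).

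**Figure D4:**
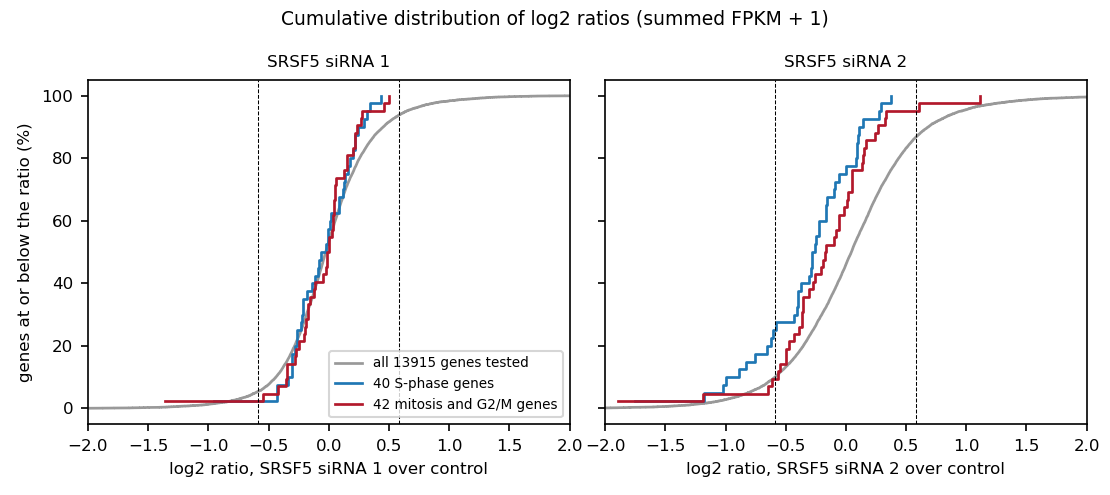
Share of genes at or below a given log2 ratio to the control (vertical, %) for siRNA 1 (left) and siRNA 2 (right): the 42 mitotic genes (red), 40 S-phase genes (blue) and all 13915 genes tested (grey), with dashed lines at 1.5-fold; ratios beyond the axes are not drawn. With siRNA 1 the middles of the curves nearly coincide, and with siRNA 2 most of both lists lies to the left of all genes, with medians of -0.17 and -0.27 against 0.05.

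The genes whose 3 values lay nearest to the mean profile of the 42 were NDUFB10 (175, 168 and 155), ZNF148 (40.0, 38.2 and 35.2), CNOT11 (33.0, 31.9 and 29.2), PEX14 (38.4, 37.0 and 33.7) and H2AFV (81.3, 78.6 and 71.6). Likeness was the Euclidean distance between centred log2 values over 3 libraries, among 7734 genes with a mean summed FPKM of at least 10. With so few libraries and so many genes, close neighbours of a mean profile are easily found. The members themselves ran from log2 -1.89 to 1.12 with siRNA 2, so nearness to their mean shows no shared behaviour.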

How the data were processed

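The authors deposited FPKM per transcript for 3 libraries, made from total RNA with a SMARTER mRNA-Seq kit per the labels' protocols. Of the builds in the submitters' processing notes (GRCh38.p12, GRCm38 and mm10) none has a stated role. Aligner, counter and strand setting: not given in the sources used here. All 293 member transcripts that GENCODE release 29 (GRCh38) also holds had the same coordinates there. In 100% of values FPKM times length came out as a whole number of steps (tolerance 0.05), read as counts of bases, and 100 bases are called a read equivalent. Counting errors come from the member transcript with the most read equivalents and cover counting error only. The 100 bases are a chosen setting, and longer reads or read pairs would make the counting errors larger. FPKM was summed over the transcripts of a gene on main chromosomes, with 1 added before log2, which understates differences of low genes. Genes with a mean summed FPKM of at least 1 were tested with limma 3.58.1 (trend) in R 4.3.3, with Benjamini-Hochberg adjustment over 13915 genes and 1 residual degree of freedom. A gene's spread is that of its siRNA libraries, moderated over all genes, and the single control is taken to vary as much. Nothing says that a transfection was repeated, so p-values measure only the spread between these samples. The limma script was tested on simulated data. This was a check of the code, and recovery was required only where all genes had a common spread, unlike these libraries. All 42 members are named. From other lists those 1.5-fold away in both siRNA libraries and the highest and lowest by mean log2 ratio are named, and SRSF5. FOXM1, MYBL2, SPC24, SPC25, WEE1, CHEK2, PKMYT1, PKP1, CDK1-206, ANLN-209, near-identical copies and overlapping genes were added after their values were seen. Members and lists were chosen with earlier results of these data known. Alternatives were other pseudocounts, filters, gene summaries, scalings, folds and limma settings.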

Additional observations from a re-analysis of the deposited data

How the results depend on the processing

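The count of members 1.5-fold from the control in both siRNA libraries was 0 under each alternative of pseudocount, filter, gene summary, scaling and a fold of 2. At a limit of 25% above, or the same ratio below, it was 2 (KIF11 and CDK1), and with 1 siRNA library left out it was 1 to 6, the members apart in the library that remained. Limma called 0 members in each of its 10 settings, and a robust fit called 3 genes of all tested. The median log2 ratio of the members was -0.11 and ran from -0.17 to -0.01 with 1 siRNA library left out. ANLN, CKAP2, CDC25B and MAD2L1 lay past 1.5-fold in 8 of 8 settings. KIF20B did so in 7, not by its highest transcript (log2 -0.58), and NUF2 in 6, not by the mean over transcripts or the highest one (-0.46 and -0.57). KIF11 did so in 6, not under median scaling or without mitochondrial transcripts (0.56 and 0.55), under which CDK1 and DLGAP5 passed. With the median of all genes set to 0 the members' medians were 0.02 for siRNA 1 and -0.22 for siRNA 2, so the sign with siRNA 1 is not fixed. The causes of these shifts were not tested. No member transcript moved by 5 points of share with both siRNAs. No paired analysis was possible because the control has 1 library.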
